A study of Arabidopsis thaliana with 13 samples.

Results

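The miRNA genes of differentiating flowers were compared with those of vegetative seedlings, and 118 of the 325 miRNA genes in the table could be tested. A gene was a member of the comparison if it reached at least 1 RPM (reads of the gene per 1000000 mapped reads of the library) in at least 2 of the 6 libraries. Of the 325 genes, 170 were above 0 in any of these 6 libraries and 216 in any of the 13 libraries of the series. The first group held 3 miRNA-seq libraries of inflorescences collected 8 days after floral induction, and the second held 3 libraries of seedlings.

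All plants were *Arabidopsis thaliana* of the Landsberg ecotype and carried pAP1:AP1:GR in an ap1 cal background. AP1 and CAL are MADS-box factors that specify the floral meristem, and plants without them build up inflorescence meristems in place of flowers. The fusion of AP1 with the glucocorticoid receptor, driven by the AP1 promoter, enters the nucleus when dexamethasone (DEX) is given, so that many flowers start together. Day 8 inflorescences had been treated with DEX every day, and the sources give its concentration in different units. Seedlings were untreated and labelled as vegetative, with no age given. Tissue, age, DEX and sequencing run therefore all differed between the groups, and their parts cannot be told apart. The table holds miRNA genes and no protein-coding markers, so the labelled tissues could not be checked against such markers. All samples were bulk tissue, in which fewer cells of a type and less RNA per cell cannot be told apart.

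Plant miRNAs are short RNAs cut from hairpin precursors. They guide ARGONAUTE proteins to nearly complementary mRNAs, which are cut or translated less. Many of the conserved families target transcription factors, and several of these control the passage from the juvenile to the adult phase, leaf growth and flower development. The families miR156 and miR157 hold plants in the juvenile phase through the SPL factors, whereas miR172 acts on AP2-like repressors of flowering.

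The mature sequences below belong to loci that the comparison turned on, and miR159b-3p, whose locus was not called, is added for comparison with miR159a. They are shown 5′ to 3′ as RefSeq annotates them in the TAIR10.1 assembly, and capitals mark the seed, bases 2 to 8. Members of a family stand together, because they share or nearly share these letters.
miR319a: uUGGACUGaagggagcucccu
miR319c: uUGGACUGaagggagcuccuu
miR159a: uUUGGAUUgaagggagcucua
miR159b-3p: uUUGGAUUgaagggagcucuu
miR159c: uUUGGAUUgaagggagcuccu
miR858a: uUUCGUUGucuguucgaccuu
miR824-5p: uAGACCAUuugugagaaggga
miR172d-3p: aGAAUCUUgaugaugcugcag
miR165a-3p: uCGGACCAggcuucauccccc
miR157d: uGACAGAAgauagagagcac
miR157c-5p: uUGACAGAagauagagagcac
miR156c-5p: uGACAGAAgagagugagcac
miR396a-5p: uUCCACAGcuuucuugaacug
miR396b-5p: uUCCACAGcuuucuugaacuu
miR408-3p: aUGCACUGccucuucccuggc

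miR319a and miR319c shared the seed UGGACUG and differed by C20U, counted from the 5′ end. miR159a and miR159b-3p shared the seed UUGGAUU and differed by A21U alone, and miR396a-5p and miR396b-5p differed by G21U alone. The mature sequences of MIR319a and MIR319b were identical and lie at 2 places in the genome, so that reads of this sequence can be placed only where they run 1 base further. miR156c-5p was found at 6 places in the genome. The authors' counter takes reads that map to a single place, so reads of exactly such a sequence were not counted. A locus was called end-dependent where a mature sequence becomes unique only through its last or its next base. That held for 23 of the 118 tested loci, including MIR319a, MIR319b, MIR159a, MIR159b, MIR396a, MIR396b, MIR157c and MIR165a.

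The depth of the groups differed. As estimated from the RPM that 1 read is worth, seedling libraries held 148673 to 366691 mapped reads and day 8 libraries held 1161531 to 1576151. Together the day 8 libraries held 5.23 times as many reads as the seedling libraries. A single read was worth 2.73 to 6.73 RPM in seedlings and 0.634 to 0.861 RPM on day 8. Genes above 0 numbered 79, 62 and 79 in the seedling libraries and 125, 134 and 135 in the day 8 libraries. Thinned by formula to the depths of the 3 seedling libraries, day 8 libraries would be left with 91.9 to 95.4, 66.6 to 71.8 and 84.1 to 88.5 genes. miRNA genes took 1.67% to 2.28% of the mapped reads in seedlings and 2.96% to 3.18% on day 8. All seedling libraries were of sequencing run 1 and all day 8 libraries of run 3, so no value within a run can be given.

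At an adjusted p under 0.05 (limma on log2(RPM + 1), Benjamini-Hochberg over 118 genes), 45 genes were higher on day 8 (38.1% of those tested) and 19 were lower (16.1%). The other 54 were not called. The values of the groups did not overlap for 68 genes (57.6%), among them all 64 called. In all, 30 tested genes were at 0 in all 3 seedling libraries and passed the filter only through day 8. They could be called in 1 direction only, and their seedling values had no spread. Of the 45 higher genes, 29 were such genes, so the 38.1% set beside the lists below rests largely on them. For 20 of those 29 the day 8 mean was under 3.76 RPM, the worth of 3 reads over the summed seedling libraries, so that a difference of this size was not detectable at the seedlings' depth. The 19 lower genes included 2 at 0 in all day 8 libraries, of 5 such tested genes, which could only be called lower. Among the 83 genes above 0 in both groups, 16 were higher and 17 were lower.

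To set the groups on 1 floor, every value below 20.2 RPM, which is 3 reads in the shallowest seedling library, was raised to it in an alternative added after the data were seen. Then 36 genes could be tested, of which 12 were higher (33.3%) and 10 lower (27.8%). All 22 were called in the same direction without the floor. Where all values of a group lay below the floor, as for MIR824 in seedlings and MIR408 on day 8, that group had no spread left. Such genes passed the filter only through the other group, so the shared direction is no separate support. The 12 higher were MIR159a, MIR159c, MIR165a, MIR166a, MIR173, MIR319a, MIR319c, MIR779, MIR824, MIR858a, MIR8169 and MIR8179. The 10 lower were MIR156a, MIR156c, MIR157c, MIR158b, MIR396a, MIR396b, MIR408, MIR827, MIR850 and MIR863. Higher and lower calls were thus nearly as many once values under the floor of the shallowest library were set aside. Fitted log2 fold changes are on the log2(RPM + 1) scale throughout and depend on the added 1 RPM where a group is near 0.

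**Figure D1:**
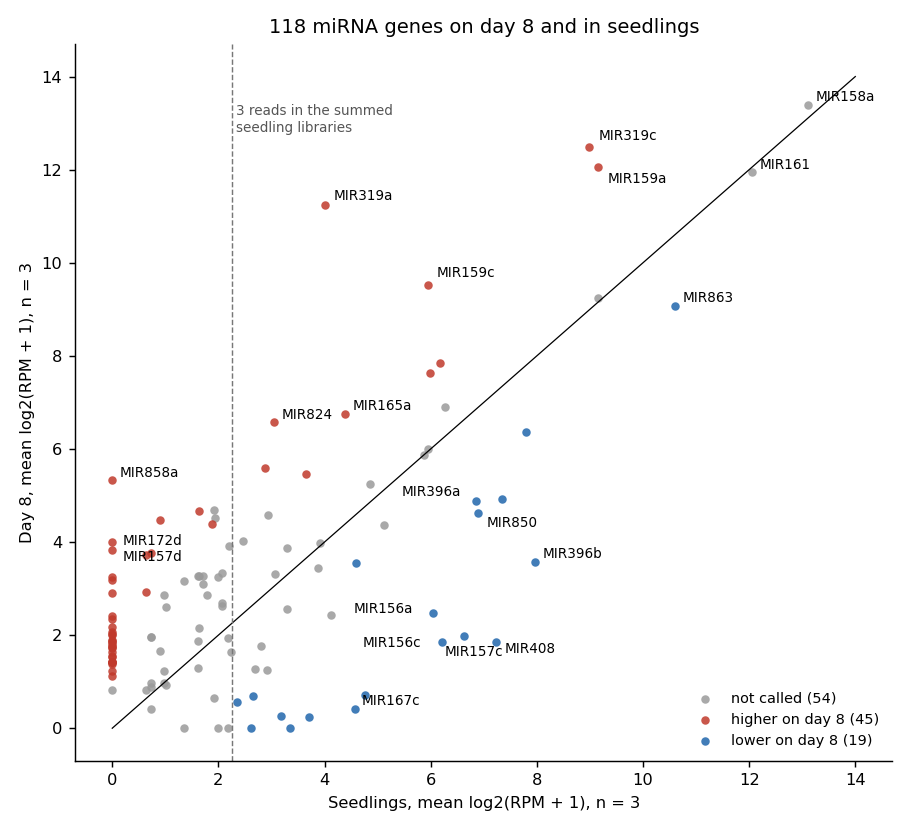
Mean log2(RPM + 1) of each of the 118 tested genes in seedlings (x axis, n = 3) and on day 8 (y axis, n = 3). The solid line marks equal values and the dashed line 3.76 RPM; 29 of the 45 higher genes (red) stand at 0 on the x axis, whereas MIR319a, MIR319c and MIR159a stand far above the line at high levels.

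In RPM, summed over loci, the largest rises were in the miR319 and miR159 families. miR319 acts on TCP factors, which restrain cell division in leaf and petal margins, and miR159 acts on GAMYB-like MYB factors, which function in anthers. All 6 loci of this list were tested, 4 were higher (66.7%, beside 38.1% of all tested genes) and none was lower. The median log2 fold change was 3.20 beside 1.23 over all tested genes. MIR319a (chromosome 4, 12352956 to 12353131, plus strand) was at 27.3, 6.73 and 17.7 RPM in seedlings and at 2455, 2504 and 2275 RPM on day 8. The lowest day 8 library was far above the highest seedling library. The mean rose from 17.2 ± 10.3 to 2411 ± 120 RPM (SD, n = 3 each), 140-fold, and the log2 fold change was 7.24 (SE 0.46, adjusted p = 0.000101, limma). MIR319a is end-dependent, and the part of read ends in this difference was not tested.

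MIR319c (chromosome 2, 17029701 to 17029899, plus strand) was at 469, 666 and 418 RPM in seedlings and at 4446, 6582 and 6525 RPM on day 8. It was the locus of this family with the most reads in both groups, and its mean was 11.3-fold higher on day 8 (log2 fold change 3.50, 95% interval 2.91 to 4.10, adjusted p = 0.000113, limma). MIR159a, the most abundant miR159 locus on day 8, was at 472, 821 and 479 RPM in seedlings and at 3965, 4390 and 4404 RPM on day 8, a 7.20-fold difference (log2 fold change 2.90, adjusted p = 0.000221). In the quantile-normalized values of the authors its log2 fold change was 0.28 and was not called. MIR159c was at 40.9, 80.7 and 67.4 RPM in seedlings and at 672, 846 and 712 RPM on day 8. The groups did not overlap for any of these 4 loci.

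MIR319b and MIR159b stood at nearly equal levels in both groups. MIR319b was at 40.9, 94.2 and 49.6 RPM in seedlings and at 46.5, 59.3 and 67.3 RPM on day 8 (log2 fold change −0.02, 95% interval −0.88 to 0.85). MIR159b was at 450, 774 and 535 RPM in seedlings and at 522, 606 and 695 RPM on day 8 (log2 fold change 0.08, 95% interval −0.50 to 0.66). For both, the libraries of the groups overlapped. In day 0 inflorescences the same loci were at 3101 and 2276 RPM (means of 2 libraries), and both are end-dependent, as are MIR319a and MIR159a. Summed over loci, miR319 rose from 597 ± 150 to 8320 ± 1197 RPM and miR159 from 1240 ± 382 to 5604 ± 386 RPM. Of 92 families tested, 37 were higher (40.2%) and 11 lower (12.0%). As with the genes, the higher families included some at 0 in all seedling libraries. Several of these had a day 8 mean under the seedling floor of 3.76 RPM, such as miR394 (1.23 RPM) and miR2937 (1.67 RPM). The count of higher families therefore has the same depth limit as that of genes.

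The composition of the miRNA reads changed accordingly. MIR319a, MIR319c and MIR159a together took 4.01% to 8.93% of the reads of miRNA genes in seedlings and 36.7% to 42.4% on day 8. MIR158a, the most abundant locus, took 40.0% to 54.2% in seedlings and 32.1% to 38.0% on day 8. Its own level was not called different, at 8323, 6693 and 12359 RPM in seedlings and 11251, 10225 and 10727 RPM on day 8. MIR161 was at 4022, 4345 and 4425 RPM in seedlings and at 3726, 4420 and 3709 RPM on day 8 (log2 fold change −0.11, 95% interval −0.42 to 0.20). miR158 and miR161 act on mRNAs of pentatricopeptide repeat (PPR) proteins, which process organellar RNA. Scaled to the miRNA total, the log2 fold change of MIR158a turned from 0.28 (not called) to −0.44 (called lower), and that of MIR161 moved to −0.84 and was called lower. Without seedling replicate 3 MIR158a was called higher (0.52). The smaller locus MIR158b was lower on day 8, at 240, 161 and 277 RPM in seedlings and 93.8, 74.0 and 77.4 RPM on day 8.

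The SPL-targeting list showed the opposite pattern. Of its 14 loci 7 were tested, with a median log2 fold change of −3.48. Among these, 5 were lower (71.4%) and 1 was higher (14.3%), beside 16.1% and 38.1% of all tested genes. MIR156c (chromosome 4, 15415418 to 15415521, minus strand) was at 84.5, 87.4 and 53.2 RPM in seedlings and at 2.58, 2.79 and 2.54 RPM on day 8. It was 28.5-fold lower by the means (log2 fold change −4.35, 95% interval −5.10 to −3.60, adjusted p = 0.000113, limma), and no day 8 library came near a seedling library. MIR157c (chromosome 3, 6244500 to 6244716, minus strand) was at 84.5, 74.0 and 152 RPM in seedlings and at 6.03, 2.79 and 1.27 RPM on day 8 (log2 fold change −4.66, adjusted p = 0.000654).

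MIR156a was at 43.6, 94.2 and 67.4 RPM in seedlings and at 12.1, 3.49 and 1.90 RPM on day 8. Its day 8 libraries were spread more widely than those of MIR156c, but still lay below every seedling library (log2 fold change −3.58). MIR156f was at 8.18, 20.2 and 10.6 RPM in seedlings, and on day 8 only 1 read in replicate 3 was seen. MIR156b fell by 1.05 on the log2 scale (adjusted p = 0.0371), whereas MIR156d, at 13.6, 6.73 and 46.1 RPM in seedlings and 5.17, 2.79 and 5.71 RPM on day 8, was not called. Reads of exactly miR156c-5p are counted at none of these loci, whereas the other arm, miR156c-3p, lies at 1 place.

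MIR157d was the only SPL-targeting locus that was higher on day 8. It was at 0 in all seedling libraries and at 11.2, 15.4 and 13.3 RPM on day 8, at least 3.53-fold higher against the floor of 3 reads over the summed seedling libraries. Its only mature sequence lacks the first base of miR157c-5p, is otherwise part of it and lies at 4 places. Reads of exactly this sequence are therefore not counted. Summed over loci, miR157 fell from 104 ± 42.6 to 16.7 ± 1.84 RPM and miR156 from 206 ± 30.5 to 24.5 ± 8.61 RPM. MIR172d, the only tested locus of 5 that act on AP2-like factors, was at 0 in all seedling libraries and at 15.5, 18.1 and 12.1 RPM on day 8. That is at least 4.05-fold higher against the same floor. Reads of exactly miR172d-3p, which lies at 2 places, are not counted, whereas the other arm, miR172d-5p, lies at 1 place.

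**Figure D2:**
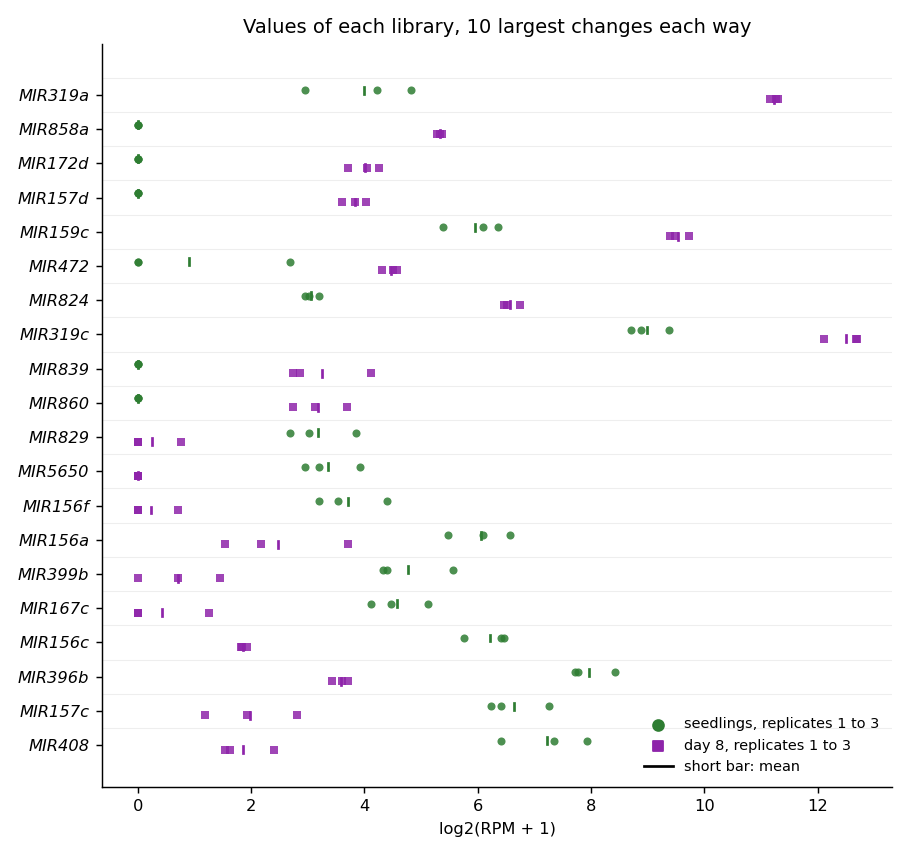
Values of each library, log2(RPM + 1), for the 10 called genes with the largest rise and the 10 with the largest fall on day 8 (green circles, seedlings; purple squares, day 8; n = 3 each; short bars, means). The groups do not overlap in any row, and MIR858a, MIR172d, MIR157d, MIR839 and MIR860 are at 0 in all 3 seedling libraries.

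miR396 acts on GRF factors, which promote cell proliferation in leaves, and both of its loci were lower, beside 16.1% of all tested genes. MIR396b was at 218, 209 and 340 RPM in seedlings and at 11.2, 9.77 and 12.1 RPM on day 8, 23.2-fold lower (log2 fold change −4.39, 95% interval −5.02 to −3.75, adjusted p = 0.000101, limma). MIR396a was at 92.7, 141 and 113 RPM in seedlings and at 28.4, 28.6 and 27.9 RPM on day 8, 4.09-fold lower (log2 fold change −1.97). The order of both loci was thus reversed between the groups. Both are end-dependent.

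miR408 and miR398 repress copper proteins when copper is scarce, and of the 7 loci of the copper list 5 were tested. Among these, 2 were lower (40%) and 1 was higher (20%), beside 16.1% and 38.1% of all tested genes. MIR408 (chromosome 2, 19319814 to 19320031, plus strand) had the largest fall of all tested genes, from 84.5, 161 and 241 RPM to 4.30, 2.09 and 1.90 RPM. It was 58.7-fold lower by the means (log2 fold change −5.37, 95% interval −6.51 to −4.23, adjusted p = 0.000266, limma). MIR398c was at 2.73, 6.73 and 7.09 RPM in seedlings and at 0 in all day 8 libraries, at least 7.67-fold lower against 3 reads over the summed day 8 libraries. Both mature sequences of MIR398c lie at 2 places, so reads of exactly these sequences are not counted. MIR398a, the higher member, was at 0 in seedlings and at 2.58, 1.40 and 1.27 RPM on day 8, below the seedling floor.

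In the phosphate and sulfate list, 2 of 13 loci were tested and both were lower, beside 16.1% of all tested genes. miR399 acts on the ubiquitin-conjugating enzyme PHO2 and miR827 on the ubiquitin ligase NLA, both of which limit phosphate uptake. MIR399b was at 19.1, 20.2 and 46.1 RPM in seedlings and at 1.72, 0 and 0.634 RPM on day 8. MIR827 was at 128, 101 and 319 RPM in seedlings and at 22.4, 30.7 and 37.4 RPM on day 8 (log2 fold change −2.40, adjusted p = 0.00456, limma). Seedling replicate 3 was the highest for both, and both are end-dependent. No locus of miR395, which acts on sulfate metabolism, passed the filter.

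MIR858a and MIR824 rose. MIR858a (chromosome 1), whose miRNA acts on MYB factors of flavonoid synthesis, was at 0 in all seedling libraries and at 37.9, 40.5 and 39.3 RPM on day 8. This was at least 10.4-fold higher against the seedling floor. MIR858b lies 604 bp away on the other strand and was at 6.89, 0.698 and 2.54 RPM on day 8 and at 0 in seedlings. Its call (adjusted p = 0.0269, limma) was lost without seedling replicate 1, without seedling replicate 3 and without day 8 replicate 3. MIR824, whose miRNA acts on AGL16, a MADS-box factor of stomatal development and flowering time, was at 8.18, 6.73 and 7.09 RPM in seedlings and at 106, 90.7 and 87.6 RPM on day 8. It was 12.9-fold higher (log2 fold change 3.52, 95% interval 2.96 to 4.08, adjusted p = 0.000101), although the seedling values rest on 6 reads in all.

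miR165 and miR166 act on HD-ZIP III factors, which set the upper side of leaves and floral organs. Of 9 loci 4 were tested, 3 were higher (75%) and 1 was lower (25%), beside 38.1% and 16.1% of all tested genes. MIR165a was at 10.9, 40.4 and 17.7 RPM in seedlings and at 121, 94.2 and 108 RPM on day 8, 4.69-fold higher (log2 fold change 2.37, adjusted p = 0.00476, limma). MIR166a was at 57.3, 101 and 42.5 RPM in seedlings and at 196, 217 and 180 RPM on day 8. Its log2 fold change of 1.64 fell to 0.92 and was no longer called with scaling to the miRNA total. The mature sequences of MIR166a lie at 7 and 2 places, so reads of exactly these sequences are not counted. The third higher locus, MIR165b, was at 0 in all seedling libraries, and its day 8 mean was below the seedling floor of 3.76 RPM. MIR166e was lower, at 2.73, 13.5 and 3.55 RPM in seedlings and 0.861, 0 and 1.27 RPM on day 8.

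miR170 and miR171 act on SCARECROW-like (SCL) factors, which maintain meristems. All 4 loci were tested and 3 were higher (75%, beside 38.1% of all tested genes). Of these, MIR170 and MIR171a were at 0 in all seedling libraries. MIR170 was at 6.03, 3.49 and 3.81 RPM on day 8, near the seedling floor of 3.76 RPM. None of the 3 was called with values raised to 20.2 RPM. With loci at 0 in seedlings set to their bound against the seedling floor, the list's median log2 fold change fell from 2.16 to 0.81. MIR171c rested on 1 seedling read and on 7.75, 8.37 and 4.44 RPM on day 8, and its call was lost without day 8 replicate 1, without day 8 replicate 2 and with scaling to the miRNA total. MIR171b was not called, at 0, 6.73 and 3.55 RPM in seedlings and 16.4, 5.58 and 4.44 RPM on day 8.

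miR173 and miR390 start the production of trans-acting siRNAs. Both MIR173 and MIR390b were higher (66.7% of the list, beside 38.1% of all tested genes), whereas MIR390a, the third locus, was not called. MIR173 was at 62.7, 67.3 and 85.1 RPM in seedlings and at 316, 188 and 198 RPM on day 8, 3.27-fold higher (log2 fold change 1.67, adjusted p = 0.00194, limma). MIR390b was at 0 in seedlings and at 1.72, 3.49 and 5.08 RPM on day 8, with a mean below the seedling floor of 3.76 RPM. MIR390a was at 5.45, 0 and 14.2 RPM in seedlings and 17.2, 14.7 and 10.8 RPM on day 8, and passed the threshold without seedling replicate 3 (log2 fold change 2.56).

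The auxin pathway list holds miR160 and miR167, which act on auxin response factors, and miR393, which acts on auxin receptors. Of its 7 tested loci 1 was lower (14.3%), near the 16.1% of all tested genes. None was higher, beside 38.1% of all tested genes. MIR167c was at 16.4, 33.6 and 21.3 RPM in seedlings and 0, 1.40 and 0 RPM on day 8 (log2 fold change −4.15, adjusted p = 0.000979, limma). With values raised to 20.2 RPM it was no longer called. MIR167a, the most abundant of the list, was at 57.3, 47.1 and 81.5 RPM in seedlings and 76.6, 55.1 and 60.3 RPM on day 8. Its log2 fold change of 0.07 (95% interval −0.60 to 0.74) turned to −0.64 with scaling to the miRNA total and was then called lower.

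Lists on small RNA machinery, organ boundaries and NF-YA factors had no called locus, beside 38.1% higher and 16.1% lower of all tested genes. miR162, miR168 and miR403 act on DICER-LIKE and ARGONAUTE mRNAs, and 4 of 5 loci were tested. MIR403 was at 21.8, 47.1 and 21.3 RPM in seedlings and 49.1, 33.5 and 30.5 RPM on day 8, and was called higher without seedling replicate 2 (log2 fold change 0.75). MIR168a was at 16.4, 0 and 24.8 RPM in seedlings and 20.7, 22.3 and 26.0 RPM on day 8. Its 0 was in seedling replicate 2, the shallowest library.

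miR164 acts on CUC factors, which keep organs apart, and 2 of 3 loci were tested. MIR164c was at 5.45, 6.73 and 10.6 RPM in seedlings and 7.75, 10.5 and 8.88 RPM on day 8. MIR164b was at 10.9, 6.73 and 0 RPM in seedlings and 2.58, 3.49 and 2.54 RPM on day 8, and passed the threshold as lower without seedling replicate 3 (log2 fold change −1.32). MIR169a, the only tested locus of 14 that act on NF-YA factors, was at 8.18, 0 and 28.4 RPM in seedlings and 2.58, 1.40 and 0.634 RPM on day 8. It too passed the threshold as lower only when a seedling library, replicate 2, was left out (log2 fold change −2.77).

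Loci of higher-numbered families formed 2 further lists. Of 31 tested loci of families numbered above 400 and below 1000, 11 were higher (35.5%) and 4 lower (12.9%), and of 30 tested loci of families numbered from 1000, 15 were higher (50.0%) and 1 lower (3.33%), beside 38.1% and 16.1% of all tested genes. In these 2 lists 7 and 12 of the higher loci were at 0 in all seedling libraries. Their median log2 fold changes were 1.23 and 1.48, beside 1.23 over all tested genes. With each locus at 0 in a group set to its bound, the medians were 0 and 0.14, beside 0.03 over all tested genes.

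Among the loci of these lists, MIR863 and MIR850 were well above 3.76 RPM in every library of both groups. MIR863, the most abundant locus of these lists, was at 1530, 1392 and 1762 RPM in seedlings and at 576, 537 and 499 RPM on day 8, 2.91-fold lower (log2 fold change −1.53, 95% interval −1.89 to −1.17, adjusted p = 0.000369, limma). MIR850 lies 670 bp from it on the same strand and was lower as well, at 117, 87.4 and 156 RPM in seedlings and 19.8, 28.6 and 23.5 RPM on day 8. MIR8179, the most abundant locus numbered from 1000, was at 5.45, 6.73 and 7.09 RPM in seedlings and 36.2, 53.0 and 53.9 RPM on day 8. Its seedling values rest on few reads and lie below 20.2 RPM.

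Near the floor, MIR472, whose miRNA acts on NBS-LRR disease resistance genes, was at 5.45, 0 and 0 RPM in seedlings and 18.9, 21.6 and 22.8 RPM on day 8. With values raised to 20.2 RPM it was no longer called. MIR839 was at 0 in seedlings and at 16.4, 6.28 and 5.71 RPM on day 8, and MIR860 was at 0 in seedlings and at 7.75, 11.9 and 5.71 RPM on day 8. They were at least 2.51-fold and 2.24-fold higher against the seedling floor. MIR5650 was at 8.18, 6.73 and 14.2 RPM in seedlings and at 0 in all day 8 libraries, at least 13.5-fold lower against the day 8 floor. MIR829 was at 5.45, 13.5 and 7.09 RPM in seedlings, and on day 8 only 1 read in replicate 2 was seen.

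**Figure D3:**
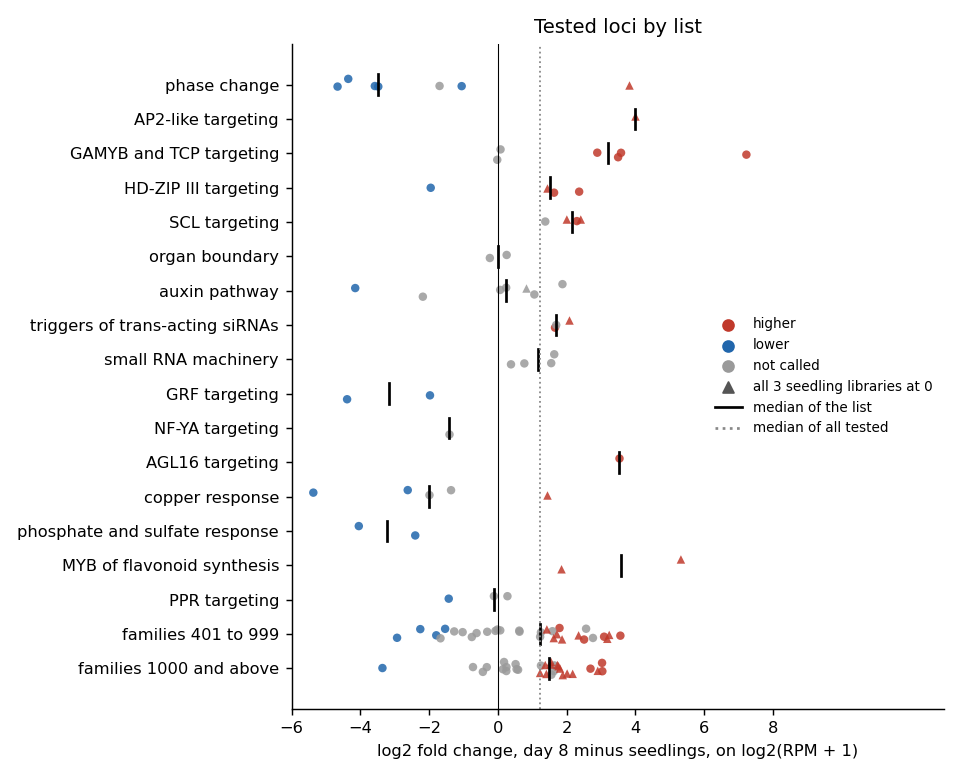
Log2 fold change of day 8 against seedlings for the tested loci of each list (points; red higher, blue lower, grey not called; triangles, all 3 seedling libraries at 0), with the median of the list (black bar) and of all tested genes (dotted line, 1.23). The SPL-targeting list (phase change, median −3.48) and the GRF list lie to the left, and the GAMYB and TCP list (median 3.20) to the right.

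The log2 ratio of 2 loci of a family is described for 6 pairs that were chosen after their values had been seen, so no test is given. The mean log2 ratio, taken after 1 RPM was added to each value, of MIR319a to MIR319b was −1.88 in seedlings and 5.38 on day 8. That of MIR157d to MIR157c was −6.64 and 1.85. MIR157d was at 0 in all seedling libraries. The −6.64 therefore rests on the added 1 RPM and the level of MIR157c and is no measured ratio. The ratio of MIR159a to MIR159b was −0.00 and 2.81, and that of MIR396a to MIR396b was −1.12 and 1.29. The other pairs were MIR319a with MIR319c and MIR158a with MIR158b. In these 6 pairs the libraries of the groups did not overlap, which carries no weight because the pairs were chosen by their values. Other pairs were not computed. End-dependent loci made up 19.5% of the tested genes, 13.3% of those called higher and 26.3% of those called lower, and the part of read ends in these ratios was not tested.

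Of all mature sequences of tested loci 62.6% began with U, the base that ARGONAUTE 1 prefers, compared with 65.6% for the higher and 55.9% for the lower loci. A protein-coding gene overlapped 35 tested loci, of which 14 were higher (40.0%) and 2 lower (5.71%), beside 38.1% and 16.1% of all tested genes.

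The earlier stages of the induced inflorescences show where these levels lay before day 8. They were sequenced as 2 libraries of day 0, 3 of day 2 and 2 of day 4, and day 0 plants were untreated. MIR319a was at 2197, 1801 and 2941 RPM on days 0, 2 and 4 (means), so its high level was already present in untreated inflorescences. MIR156c was at 2.45, 2.23 and 0.881 RPM and MIR408 at 3.25, 5.51 and 2.55 RPM on the same days, all far below the seedling values. MIR172d was at 44.8, 45.1 and 37.6 RPM, above its day 8 mean of 15.2 RPM. MIR824 was at 20.5, 18.1 and 24.7 RPM and reached 94.7 RPM on day 8 only.

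Day 8 was also compared with day 0 in a fit of all 13 libraries, in which 16 of the 118 genes were higher on day 8 (13.6%) and 7 lower (5.93%). This comparison uses the same day 8 libraries, and day 0 was of run 2. MIR824 was higher on day 8 than on day 0 (log2 fold change 2.18, adjusted p = 0.00048, limma), beside 3.52 against seedlings. MIR858a (0.99) and MIR319c (0.78) were higher too, beside 5.33 and 3.50 against seedlings. For MIR319a the value was 0.13 (not called) beside 7.24. MIR172d had a log2 fold change of −1.51 against day 0 (adjusted p = 0.0091), beside 4.00 against seedlings.

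Some loci that were lower than in seedlings had higher values than on day 0. MIR863 was at 253 RPM on day 0 and 537 RPM on day 8 (log2 fold change 1.09, called), beside −1.53 against seedlings. MIR850 (1.39), MIR158b (1.22) and MIR156a (2.12) were likewise higher than on day 0. Of the 7 genes lower than on day 0, 6 were end-dependent, among them MIR319b (−5.74), MIR159b (−1.91), MIR396b (−2.82) and MIR827 (−1.71), compared with 23 of 118 tested. None of the 16 higher genes was. Days 0 and 2 were of run 2, and whether the run moves the ends of reads was not tested. Without day 0 replicate 1 the counts were 8 higher and 3 lower, and without day 0 replicate 2 they were 3 higher and 5 lower.

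**Figure D4:**
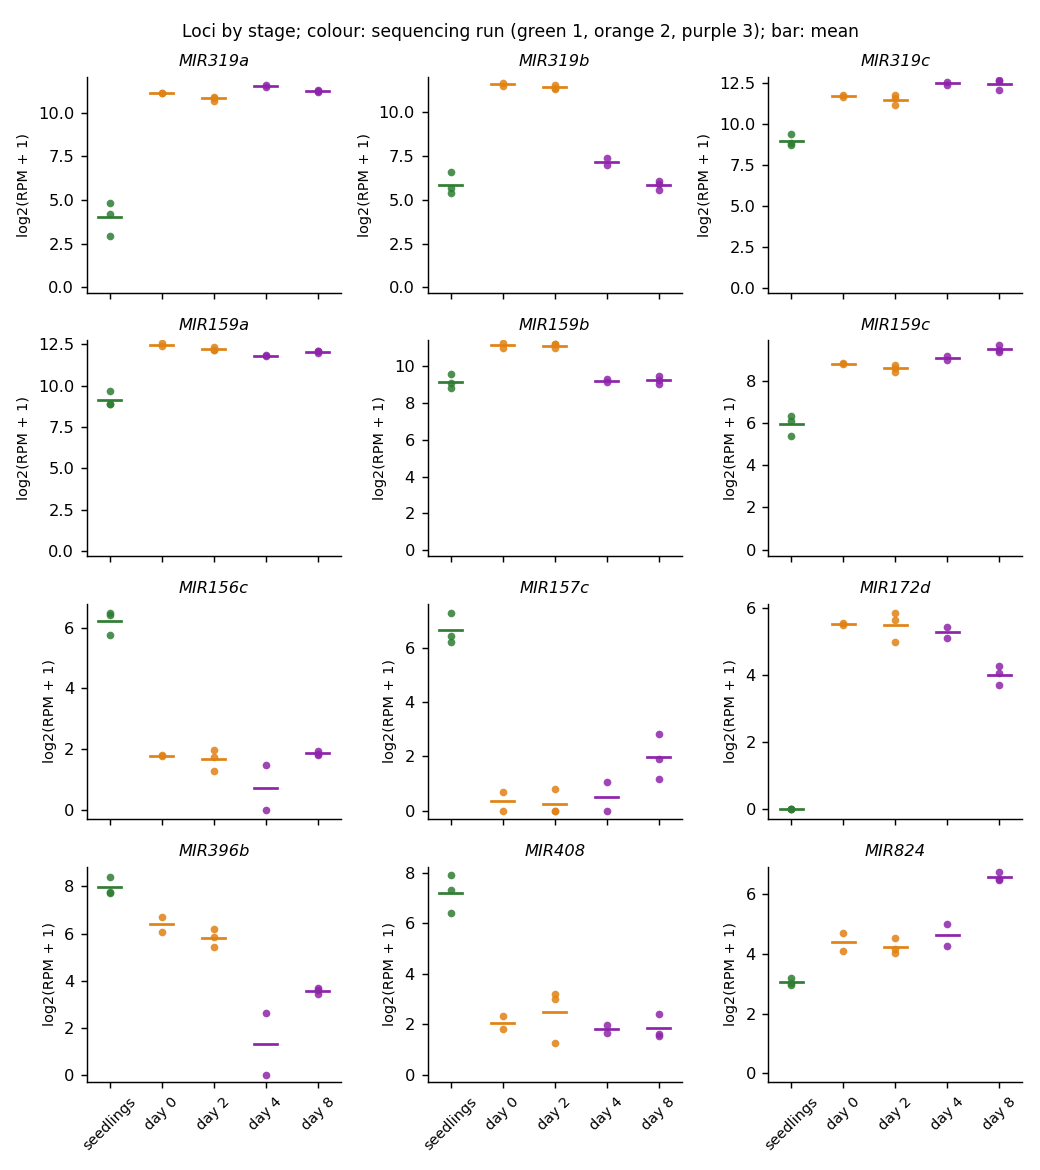
log2(RPM + 1) of 12 loci in each library of seedlings and of days 0, 2, 4 and 8 (points; bars, means; green run 1, orange run 2, purple run 3). Of the end-dependent loci MIR319a, MIR319b and MIR159b, the first is high at every inflorescence stage and the others are highest in run 2. MIR159b is well above 0 in seedlings and on day 8 too. MIR824 is highest on day 8.

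MIR780 was singled out after its values were seen. It was at 62.0, 6.98 and 33.0 RPM on day 8, at 0 in every library of the 3 earlier stages, and at 2.73, 13.5 and 0 RPM in seedlings. It was called against day 0 (log2 fold change 4.69) and not against seedlings (2.77, 95% interval −0.08 to 5.62), and its day 8 libraries spread from 6.98 to 62.0 RPM.

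**Figure D5:**
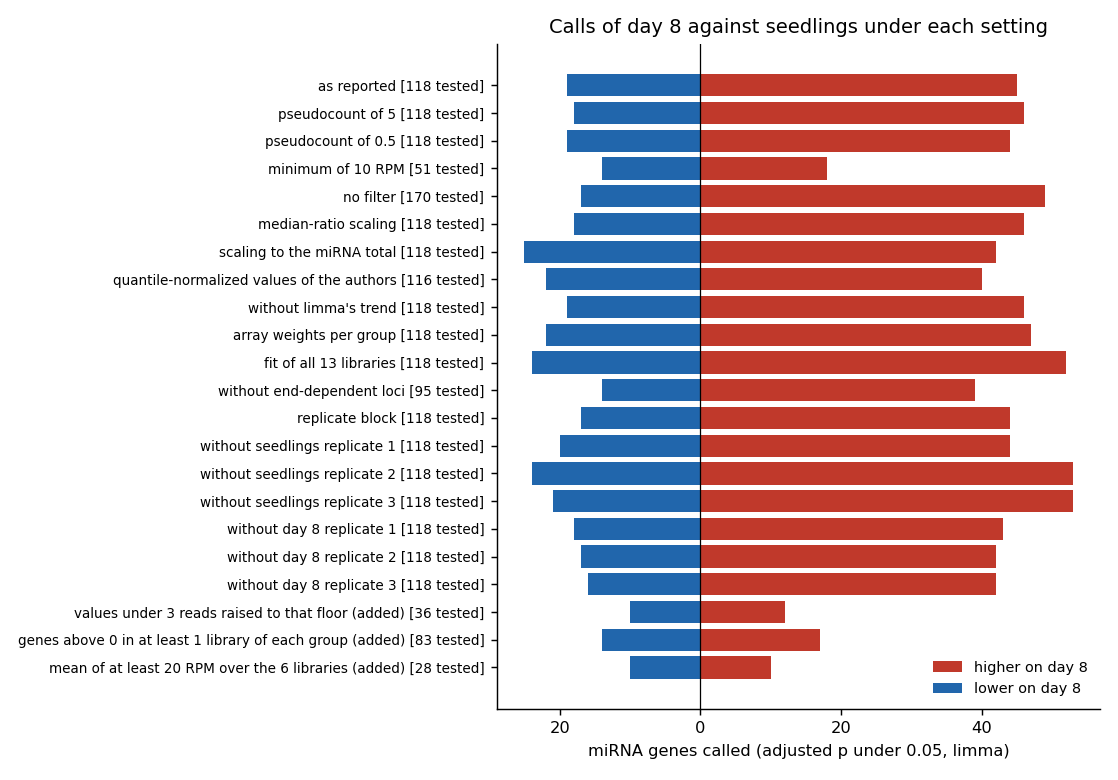
Number of miRNA genes called higher (red, to the right) and lower (blue, to the left) on day 8 under each setting, with the number tested in brackets. Higher calls fall from 45 to between 10 and 18 where genes near 0 in seedlings are left out or raised to a floor, and the lower calls from 19 to between 10 and 14.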

How the data were processed

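Small RNA was sequenced in 13 libraries of pAP1:AP1:GR ap1 cal plants. Adapters and low-quality ends were removed by the authors with Trim Galore, STAR placed the reads on TAIR10 and counted them per miRBase miRNA gene, and the deposited RPM are these counts relative to mapped reads. The sources used here give no tool versions for the small RNA reads. A table of 169 genes that the authors quantile-normalized served as an alternative, and 3 columns of no listed sample were not used. Groups came from the sample titles. The time label of day 2 replicate 1 disagrees with its title. Replicates are described as biological, with no word on how plants were pooled.

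Depth was estimated from the RPM step of 1 read (low values whole within 0.1). Reads were not recovered for a count model. Runs follow the deposited table, where a run is named at the first library of a block. Genes with at least 1 RPM in at least 2 of 6 libraries were tested on log2(RPM + 1) with limma 3.58.1 in R 4.3.3 (intensity trend, two-sided, Benjamini-Hochberg, threshold 0.05), which was tested on simulated data. The simulated counts had a fixed dispersion (extra spread between libraries) for every gene, so they do not show how the test behaves on these libraries. No replicate block was used in the reported fit. Alternatives covered the pseudocount, filter, scaling, trend, array weights, replicate block, end-dependent loci and each left-out library. Tables were handled with Python 3.11.15, pandas 2.3.3, numpy 2.4.6 and matplotlib 3.10.9.

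All 325 loci were matched to TAIR10.1 of RefSeq, 177 by miRBase identifier and 148 by name. The genes named are the 10 higher and the 10 lower with the largest called change and no overlap, the 6 most abundant, and the 2 most abundant tested loci of each list (1 for the lists of families numbered above 400), 41 in all. Other loci named were chosen after their values were seen. Lists were set by family number, and members and lists were chosen with earlier results of these data known.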

Additional observations from a re-analysis of the deposited data

How the results depend on the processing

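Against the 45 genes called higher, a minimum of 10 RPM gave 18, values raised to 20.2 RPM gave 12, genes above 0 in both groups gave 17 and a mean of at least 20 RPM gave 10. The last 3 settings were added after the data were seen. The 19 lower calls became 10 with values raised to 20.2 RPM and 10 with a mean of at least 20 RPM. Fewer genes were tested in each. Higher families fell from 37 to 16 with a minimum of 10 RPM, and lower families rose from 11 to 17 with scaling to the miRNA total. The cause of the latter was not tested. The median log2 fold change of 1.23 was 0.42 with a pseudocount of 5, 1.61 with 0.5, 0.59 with a minimum of 10 RPM, 0.49 without a filter, 0.84 with scaling to the miRNA total, 0.69 with quantile normalization, 1.29 with median-ratio scaling, 0.13 with values raised to 20.2 RPM, 0.26 for genes above 0 in both groups and 0.074 with a mean of at least 20 RPM.

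With each library left out, higher genes numbered 42 to 53, lower genes 16 to 24, higher families 34 to 46, lower families 10 to 15, and the median was 0.84 (without seedling replicate 2) to 1.27. Against day 0 they gave 3 to 15 higher and 3 to 7 lower. Same-numbered libraries did not deviate together (correlations −0.23, −0.16 and −0.13), so the replicate numbers were not taken as pairs. With the replicate block 44 genes were higher and 17 lower, 37 families higher and 11 lower, and 11 genes higher and 7 lower than on day 0.

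For the 41 named genes, 772 alternative values kept direction and side of the threshold, 13 lost the call, 7 gained it and 2 reversed. The reversals were MIR158a (−0.44) and MIR167a (−0.64) with scaling to the miRNA total, both called lower there and not called in RPM. MIR159a lost its call with quantile normalization (0.28).

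Depth limits the seedlings most. Values of a few RPM there rest on 1 or 2 reads, and intervals cover the spread between 3 libraries only.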
